A study of Mus musculus with 36 samples.

Results

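The Hox genes of the 4 mouse clusters were followed through every deposited island list of a ChIP-seq series on KDM2B in the newborn hippocampus. Members were the Hoxa, Hoxb, Hoxc and Hoxd genes listed by name, 38 of the 39 protein-coding Hox genes of the clusters in GENCODE vM21 and 38 of 21755 protein-coding genes in all, and the remaining gene was not analysed here. By paralog number, 11 members were anterior (1 to 4), 11 middle (5 to 8) and 16 posterior (9 to 13). The control groups (Ctrl) carried Kdm2b fl/+ or Kdm2b fl/fl without separation by allele, and the mutant groups (cKO) carried Kdm2b Emx1-delta-CxxC, in which Emx1-Cre removes the floxed exon for the CxxC zinc finger, the DNA-binding part of KDM2B, so that a shortened protein may remain. Chromatin came at postnatal day 0 (P0) either from dissected hippocampus or from neurospheres, floating cultures of neural progenitors grown from P0 hippocampi with FGF2 and EGF. For each source and genotype, H2AK119ub1, H3K27me3 and H3K36me2 were each profiled in 2 libraries, which gives 12 groups and 24 island lists. Emx1-Cre acts in the dorsal telencephalic lineage, so microglia, endothelial cells and interneurons of the hippocampus keep the intact allele. In bulk chromatin, fewer cells with a mark and less mark per cell cannot be told apart.

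Hox genes encode homeodomain transcription factors that specify position along the head-to-tail axis, and within a cluster their order on the chromosome follows the order of their expression domains. Anterior paralogs act in the hindbrain, posterior paralogs in the trunk, limb bud and tail, and the telencephalon, from which the hippocampus arises, lies in front of all Hox domains. Silent Hox clusters are textbook Polycomb targets. Polycomb repressive complex 1 (PRC1) places H2AK119ub1, a ubiquitin on histone H2A, and PRC2 places H3K27me3, a trimethylated lysine of histone H3. The CxxC finger of KDM2B brings a variant PRC1 to unmethylated CpG islands. H3K36me2 marks broad active and intergenic chromatin and hinders PRC2.

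All positions are in mm10. The Hoxa cluster spans chr6:52162417-52260880 on the minus strand, with 10 members over 98.5 kb. The Hoxb cluster spans chr11:96194316-96368256 on the plus strand, with 10 members over 173.9 kb. The Hoxc cluster spans chr15:102921103-103036852 on the plus strand, with 9 members over 115.8 kb. The Hoxd cluster spans chr2:74668310-74765142 on the plus strand, with 9 members over 96.8 kb. Ends are the outer ends of the members. Around the annotated start, 23 of the 38 members had a CpG-rich promoter (over 50% GC and a CpG ratio, observed over expected, above 0.6 in the 1 kb around the start), against 44.7% of all protein-coding genes. Annotated starts were those of GENCODE, and for Hoxc5, Hoxb3, Hoxd4 and Hoxd10 they lay 46565 bp before, 16225 bp after, 10049 bp before and 7651 bp after the RefSeq start. Hoxd3 and Hoxd4 share practically 1 start.

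The bases just before the start show what a CxxC finger would meet at the cluster ends. RefSeq promoter sequences (GRCm38.p6) matched 22 members by symbol, among them 6 of the 8 genes at the ends of their clusters, whose 250 bases before the start are given 5′ to 3′ on the gene's strand with every CpG (CG, the same on both strands) in capitals.
Hoxa2: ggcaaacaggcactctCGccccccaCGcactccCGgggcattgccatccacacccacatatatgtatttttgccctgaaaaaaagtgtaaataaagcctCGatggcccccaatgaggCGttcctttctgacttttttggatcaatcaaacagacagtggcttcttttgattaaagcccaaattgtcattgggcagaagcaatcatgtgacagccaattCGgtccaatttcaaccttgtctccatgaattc
Hoxa13: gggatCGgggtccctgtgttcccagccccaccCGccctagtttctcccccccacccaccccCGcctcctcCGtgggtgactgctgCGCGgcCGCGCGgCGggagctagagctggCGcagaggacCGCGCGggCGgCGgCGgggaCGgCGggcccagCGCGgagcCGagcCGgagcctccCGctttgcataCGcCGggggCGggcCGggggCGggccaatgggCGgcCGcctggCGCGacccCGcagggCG
Hoxb1: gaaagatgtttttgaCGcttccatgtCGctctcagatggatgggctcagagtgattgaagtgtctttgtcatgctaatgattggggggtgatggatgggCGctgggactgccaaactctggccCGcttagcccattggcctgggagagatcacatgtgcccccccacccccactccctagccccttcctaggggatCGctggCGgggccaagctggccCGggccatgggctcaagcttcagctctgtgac
Hoxc4: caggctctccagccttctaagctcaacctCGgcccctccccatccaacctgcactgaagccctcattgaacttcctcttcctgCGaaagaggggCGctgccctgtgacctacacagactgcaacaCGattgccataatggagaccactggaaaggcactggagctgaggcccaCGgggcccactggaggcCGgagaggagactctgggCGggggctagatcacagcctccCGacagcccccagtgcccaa
Hoxd1: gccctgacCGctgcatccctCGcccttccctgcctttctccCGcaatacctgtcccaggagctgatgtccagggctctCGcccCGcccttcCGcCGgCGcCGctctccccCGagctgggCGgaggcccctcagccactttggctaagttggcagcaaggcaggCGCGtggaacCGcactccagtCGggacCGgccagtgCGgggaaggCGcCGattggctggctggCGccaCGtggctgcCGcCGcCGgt
Hoxd13: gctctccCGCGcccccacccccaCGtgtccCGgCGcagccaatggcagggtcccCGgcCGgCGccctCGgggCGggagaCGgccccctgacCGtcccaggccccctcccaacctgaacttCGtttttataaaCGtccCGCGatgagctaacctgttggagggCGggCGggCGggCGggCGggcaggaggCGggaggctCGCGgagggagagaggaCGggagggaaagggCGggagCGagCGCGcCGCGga
Hoxa2 (chr6:52164832-52165081, minus strand) held 6 CpGs, and Hoxa13 (chr6:52260881-52261130, minus strand) held 35. Hoxb1 (chr11:96365508-96365757) held 7, Hoxc4 (chr15:103034145-103034394) 8, Hoxd1 (chr2:74762730-74762979) 24 and Hoxd13 (chr2:74667975-74668224) 31, all on the plus strand. The Hoxc4 stretch belongs to the RefSeq table's start, which differs from the GENCODE start used for its promoter values. The 22 members ranged from 2 CpGs (Hoxd11) to 35, with a median of 12, against a median of 6 over the 27025 symbols of the table. At least 12 CpGs were present in 33.8% of those symbols and at least 1 in 91.7%.

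An island is a stretch that SICER called enriched against input, given with its read count. The lists held 13711 to 53419 islands for H2AK119ub1 and 12195 to 38356 for H3K27me3 in hippocampus, 23415 to 46039 and 35593 to 65840 in neurospheres, and 31578 to 148976 for H3K36me2. Counts inside H2AK119ub1 and H3K27me3 islands summed to 987329 to 17734396 per library, and reads outside islands were not in the files. Libraries stood apart in ways that touch Hox results. The number 1 H2AK119ub1 libraries of hippocampus held 1015502 (Ctrl) and 987329 (cKO) counts in 45.7 and 37.3 Mb of islands, against 4215938 and 6799096 counts in 157 and 247 Mb for number 2. The H3K27me3 library of hippocampus cKO 2 covered the promoters of Emx1 (89.1%), Emx2 (55%) and Lhx2 (100%), transcription factors of the telencephalon, all of which were at 0 in the other 3 hippocampus libraries. Whether that library holds the tissue its label names is in doubt and could not be settled from the island lists. Longest islands, relative densities and region counts between genotypes over the clusters are therefore given with and without it, as are relative densities between sources. Other results from hippocampus H3K27me3, such as shares over all promoters or regions, shares of island counts and listed genes, include it. Neurospheres had no H3K27me3 island over Emx2 or Sox2, while Emx1 was covered by 39.1 to 100% in all 4 neurosphere libraries. Where no source says that libraries came from separate animals or cultures, p-values measure the spread between libraries, which may be technical.

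H3K27me3 lay over the whole of every cluster. The promoter window (2 kb to either side of the start) was 100% covered for 38 of 38 members in 8 of 8 libraries, anterior, middle and posterior alike. Over CpG-rich promoters outside the clusters, 4.72 to 9.83% per library were fully covered. Of 2429 windows of 200 bp inside the clusters, 2361 (97.2%) were in an island in all 8 libraries, and in Hoxc 580 of 580 were. With H3K27me3 coverage at its ceiling, no member had lower or higher promoter coverage in both cKO libraries than in both Ctrl libraries, in either source. Over all promoters with an island in at least 1 library of the source, 2.58% were lower and 11.8% higher in hippocampus, and 13.3% were lower and 8.53% higher in neurospheres.

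A cluster was usually 1 island. Over the 4 clusters together, hippocampus had 4 and 7 H3K27me3 islands in Ctrl and 4 and 4 in cKO, and neurospheres had 6 and 7 in Ctrl and 4 and 4 in cKO. The breaks were short. In neurosphere Ctrl 1, 0.8 kb was uncalled in Hoxa (chr6:52255801-52256600) and 0.8 kb in Hoxd (chr2:74742201-74743000). In neurosphere Ctrl 2, 1.0 kb was uncalled in Hoxa (chr6:52257401-52258400), 0.8 kb in Hoxb (chr11:96239401-96240200) and 1.0 kb in Hoxd (chr2:74742201-74743200). The Hoxa break of Ctrl 1 lay between Hoxa11 and Hoxa13, and that of Ctrl 2 ran into Hoxa13 (chr6:52257694-52260880). The Hoxd breaks lay inside the annotated span of Hoxd3 (chr2:74711927-74748442), and the Hoxb break between Hoxb13 and Hoxb9. The Hoxa breaks set the start of Hoxa13 apart, the Hoxd breaks set Hoxd1 apart, and both are the outermost genes of their clusters. Hippocampus Ctrl 2 had 3 breaks of 1.4, 7.8 and 1.0 kb, all in Hoxb between Hoxb13 and Hoxb9, and covered 94.1% of that cluster. Covered share in neurosphere Hoxd was 99.1% ± 0.146 (SD, n = 2) in Ctrl and 100% in both cKO libraries, and in Hoxa 99.1% ± 0.144 and 100%. Neither group overlapped the other there, with an exact permutation p of 0.333 (two-sided), the smallest that 2 libraries against 2 can give. With islands joined across gaps of up to 2 kb, each neurosphere library had 4 H3K27me3 islands over the 4 clusters, 1 per cluster.

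**Figure D1:**
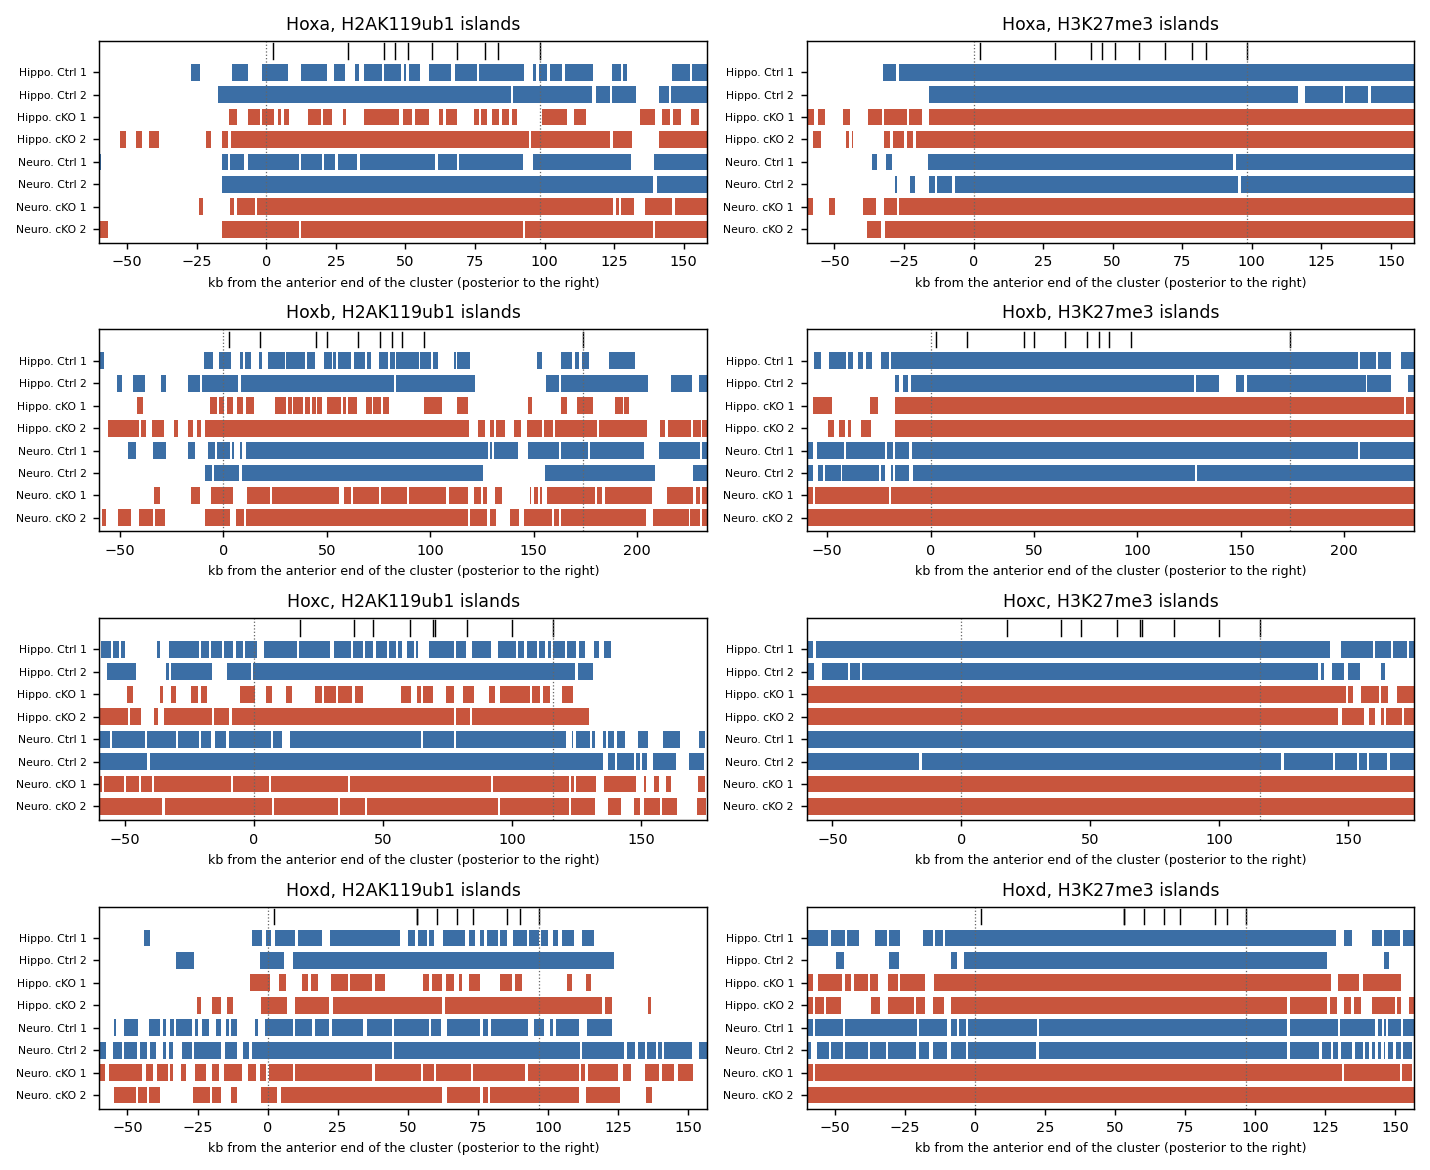
Islands of H2AK119ub1 (left) and H3K27me3 (right) over each cluster, in kb from its anterior end, 1 line per library with Ctrl in blue and cKO in red, ticks at gene starts and dotted lines at the cluster ends; islands are drawn to at most 60 kb beyond the ends. H3K27me3 forms near-unbroken bars from end to end in all 8 libraries, while H2AK119ub1 breaks into many short pieces in the number 1 hippocampus libraries.

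Islands differed between libraries mainly in how far they ran past the genes. In neurospheres the longest H3K27me3 island touching Hoxd measured 88.4 kb in each Ctrl library, against 187.8 and 246 kb in the cKO libraries. Over Hoxa the Ctrl islands measured 109.6 and 101.6 kb and the cKO islands 217.6 and 284.8 kb. Over Hoxb the Ctrl islands measured 216 and 148.8 kb and the cKO islands 310.4 and 650.2 kb. Over Hoxc they measured 288.6 and 139.4 kb (Ctrl) and 286.6 and 397.6 kb (cKO). The cKO islands were longer than both Ctrl islands in 3 of 4 clusters, and among all merged H3K27me3 regions of neurospheres 37% had a longer longest island in both cKO libraries. In hippocampus 2 of 4 clusters did so, Hoxb (226 and 136.6 against 246.4 and 257.8 kb) and Hoxc (199.6 and 176.8 against 238.8 and 239.6 kb), with 27.8% over all regions. Without hippocampus cKO 2, the remaining cKO island over Hoxd (141.6 kb) was also longer than both Ctrl islands (139.4 and 129.6 kb). The 27.8% holds for both cKO libraries, and the share without cKO 2 was not computed.

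For Hoxd the added length lay on both sides. Beyond the Hoxd1 end the cluster's H3K27me3 islands reached 2.26 kb in both neurosphere Ctrl libraries, against 56.9 and 62.3 kb in cKO. Beyond the Hoxd13 end they reached 14.5 kb in both Ctrl libraries, against 34.1 and 86.9 kb in cKO. The Hoxa islands passed Hoxa13 by 76.5 kb in both Ctrl libraries, and by 92.5 and 154.5 kb in cKO. Past Hoxa2 they reached 16.2 and 6.62 kb in Ctrl, against 26.6 and 31.8 kb in cKO. The Hoxb islands passed Hoxb1 by 9.14 and 8.74 kb in Ctrl, against 19.3 and 359 kb in cKO, and Hoxb13 by 32.9 and 103.7 kb against 117.1 and 117.3 kb. Around Hoxc the genotypes overlapped, with 112.7 and 15.3 kb against 110.7 and 112.5 kb past Hoxc4 and 60.1 and 8.302 kb against 60.1 and 169.3 kb past Hoxc13. For the outer ends of the merged regions, which could be compared over all regions, 4 of 8 Hox ends lay further out in both cKO libraries and 1 of 8 further in, against 20.2% and 12.2% of all ends.

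Most of that flanking chromatin carried smaller islands in Ctrl. Over the merged region that holds Hoxd, which joins all overlapping H3K27me3 islands of neurospheres, 221 and 209 kb were called in Ctrl, in 19 and 30 islands. In cKO, 241 and 246 kb were called, in 7 islands and 1 island. The Hoxa region held 245 and 233 kb in 11 and 19 islands in Ctrl, against 275 and 284.8 kb in 8 islands and 1 island in cKO. The Hoxb region held 673.6 and 639.8 kb in 22 and 45 islands, against 679.8 and 691.4 kb in 17 and 2. The called length therefore differed far less than the longest island.

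**Figure D2:**
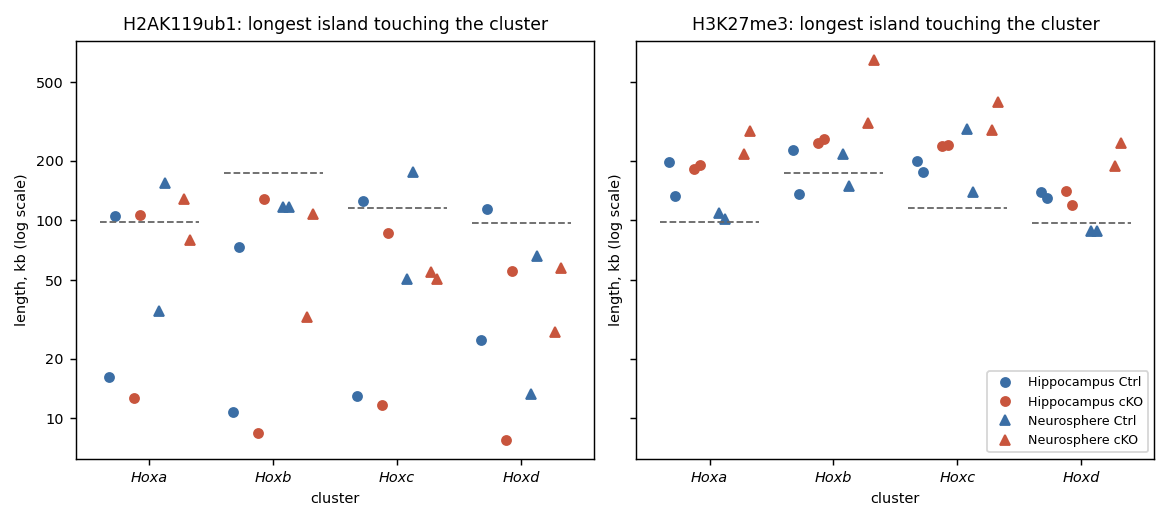
Length in kb (log axis) of the longest H3K27me3 island touching each cluster, 1 point per library by source and genotype, with a dashed line at the length of the cluster itself. In neurospheres the cKO points for Hoxa, Hoxb and Hoxd lie above both Ctrl points, and those for Hoxc overlap them.

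The neighbours reached by cluster islands were few. Evx2, an even-skipped homeobox gene 8.75 kb beyond Hoxd13, lay under the Hoxd island in 8 of 8 H3K27me3 libraries and in 5 of 8 H2AK119ub1 libraries. Evx1, 52.6 kb beyond Hoxa13, was reached by the Hoxa H3K27me3 island in 7 of 8 libraries. In the exception, hippocampus Ctrl 2, the Evx1 promoter had an H3K27me3 island apart from that of Hoxa. Beyond Hoxb13, the Hoxb H3K27me3 island reached Ttll6 (60.5 kb away) in 1 hippocampus cKO, 1 neurosphere Ctrl and 2 neurosphere cKO libraries. It reached Calcoco2 (82.4 kb) in 1 neurosphere Ctrl and 2 neurosphere cKO libraries. Mtx2, 60.7 kb from Hoxd1, and Skap1, 96.3 kb from Hoxb1, were reached by a cluster island only in neurosphere cKO 2 among the 8 H3K27me3 libraries. Ttll6 had an H3K27me3 island at its promoter in every library, and Mtx2 and Skap1 had one in every neurosphere library.

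H2AK119ub1 covered the same genes with less continuity. In neurospheres the promoter was fully covered for 33 and 38 of 38 members in Ctrl and 30 and 35 in cKO, and no member was without an island. Over CpG-rich promoters outside the clusters, 17.9 and 5.06% were fully covered in Ctrl and 2.12 and 9.57% in cKO. In hippocampus the number 2 libraries fully covered 37 (Ctrl) and 36 (cKO) of 38 members, and the number 1 libraries 7 (Ctrl) and 3 (cKO). Over CpG-rich promoters outside the clusters, 7.51 and 6.85% were fully covered in the number 2 libraries and 0.247 and 0.144% in the number 1 libraries. Hippocampus cKO 1 left 7 members without any H2AK119ub1 in the window, namely Hoxb8, Hoxb2, Hoxc8, Hoxc4, Hoxd13, Hoxd3 and Hoxd4, where 95.7% of CpG-rich promoters outside the clusters had none. Mean coverage over members was 74.1 and 99.5% in hippocampus Ctrl, 49.7 and 99.5% in hippocampus cKO, 97.6 and 100% in neurosphere Ctrl and 97.3 and 98.4% in neurosphere cKO. The spread between the 2 libraries of a hippocampus group was thus wider than the difference between the genotype means.

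In the low-count hippocampus libraries, mean coverage was lowest over anterior members. In hippocampus Ctrl 1 the mean was 66.3% for anterior, 76.5% for middle and 77.8% for posterior members, and in cKO 1 it was 35.9, 49.6 and 59.4%. Of the 7 uncovered members in cKO 1, 4 were anterior, 2 middle and 1 posterior. Both are low-count libraries, and the other 2 hippocampus libraries were at 98.2 to 100% for every class, so the order rests on those 2 libraries and was not tested. In neurospheres it was not the same, since the lowest mean was over middle members in Ctrl 1 (96.3%) and cKO 1 (95.3%) and over anterior members in cKO 2 (94.8%).

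The genes at the cluster ends show the range. Hoxa2, a patterning gene of the second pharyngeal arch, was covered by 100 and 100% in hippocampus Ctrl and 60 and 100% in cKO, and by 100% in all neurosphere libraries. Hoxa13, a gene of the distal limb and hindgut, was covered by 70 and 100% in hippocampus Ctrl and 32 and 100% in cKO. Hoxd13, a gene of the digits, was covered by 80 and 100% in hippocampus Ctrl and by 0 and 100% in cKO, and by 95 and 100% in neurosphere Ctrl and 100% in both neurosphere cKO libraries. Hoxa13 was at 100% in all 4 neurosphere libraries. Hoxa13 and Hoxd13 had the most CpGs of the 22 promoters, and neither was fully covered in a low-count library. Only 7 (Ctrl 1) and 3 (cKO 1) of 38 members were, among them Hoxa2 (6 CpGs) in Ctrl 1 and Hoxa5 (28 CpGs) in cKO 1. A link with the CpG count was not tested. Hoxb1, which specifies a hindbrain segment, was the end gene with the most variable coverage in neurospheres, at 75 and 100% in Ctrl and 100 and 63.8% in cKO, after 78.8 and 100% in hippocampus Ctrl and 66.2 and 100% in hippocampus cKO. Hoxc4, an anterior gene, was covered by 80 and 100% in hippocampus Ctrl and 0 and 100% in cKO, and Hoxc13, a gene of hair and nail, by 77.5 and 100% in Ctrl and 22.6 and 100% in cKO. Both were at 100% in all 4 neurosphere libraries. Hoxb13, which sits far from the rest of its cluster, was covered by 70 and 100% in hippocampus Ctrl and by 100% in every other library.

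**Figure D3:**
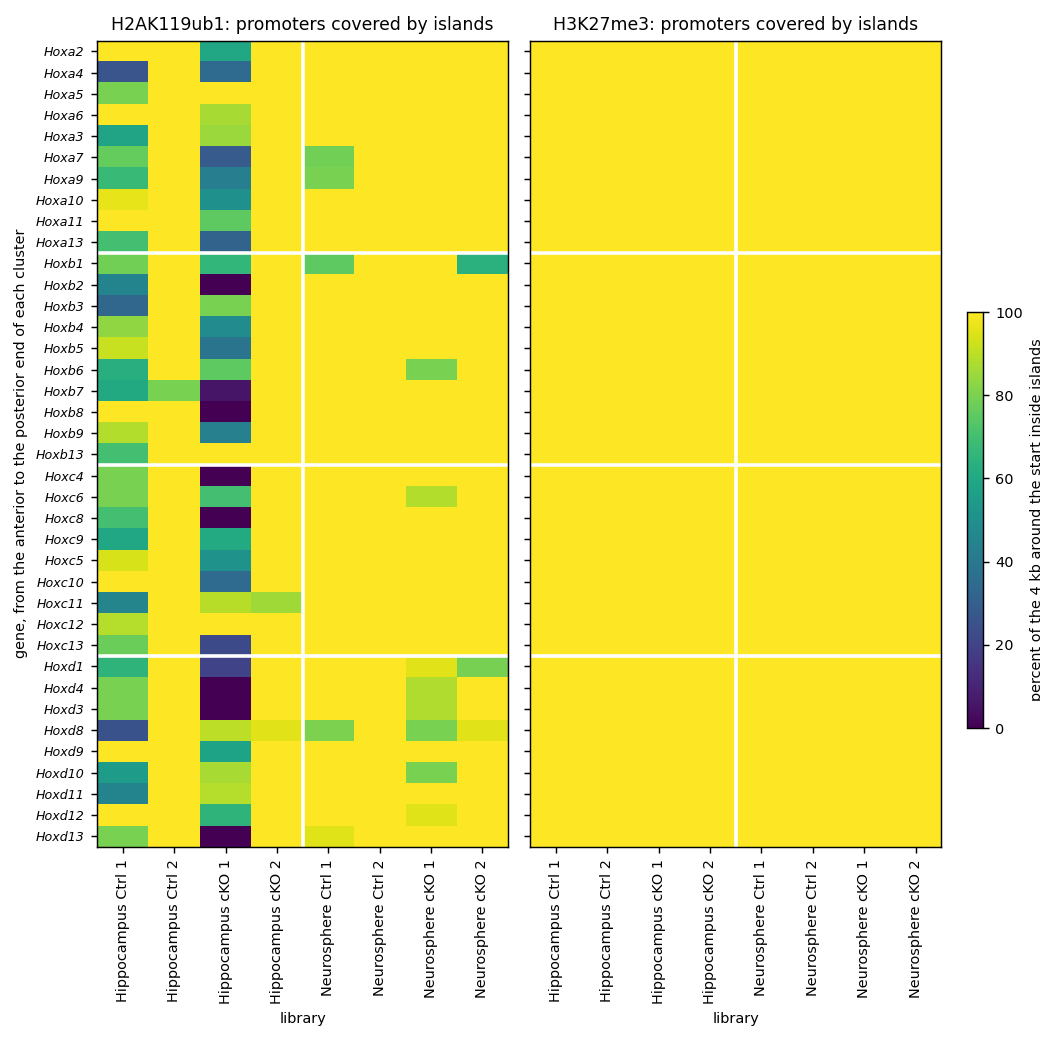
Covered percent of the 4 kb promoter window (colour scale, 0 to 100) for each of the 38 Hox genes, in rows by cluster, and each of 8 libraries, in columns, for H2AK119ub1 and H3K27me3. The H3K27me3 panel is 100% throughout, and the H2AK119ub1 panel is incomplete mainly in hippocampus Ctrl 1 and cKO 1.

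Islands of H2AK119ub1 over the 4 clusters numbered 69 and 10 in hippocampus Ctrl, 67 and 17 in hippocampus cKO, 32 and 7 in neurosphere Ctrl and 27 and 22 in neurosphere cKO. Joining gaps of up to 2 kb left 26 and 6, 32 and 9, 9 and 5, and 10 and 7. Covered share of a whole cluster was lowest for Hoxb in hippocampus cKO 1 (41.5%), and 100% was reached by Hoxa or Hoxc in 3 libraries. Within each source, neither Ctrl nor cKO stood apart in the covered share of any cluster, and over both sources the exact stratified permutation p was 0.667 to 0.889 (two-sided, 36 splits, smallest possible 0.0556).

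Of the 2429 windows of 200 bp, 790 (32.5%) carried H2AK119ub1 in all 8 libraries and 211 (8.69%) in 4 or fewer. The windows covered in all 8 held 4.95 CpGs on average, and those covered in 4 or fewer held 2.16. The first value is about that of the clusters as a whole, since the 97.2% of windows with H3K27me3 in all 8 libraries held 4.94. Of the 211, 188 were in Hoxb, as were all 13 windows covered in no library. The longest stretch covered in 4 or fewer libraries was chr11:96220201-96242600, 22.4 kb between Hoxb13 and Hoxb9, of which 50.7% is soft-masked as repeats. The H3K27me3 breaks over Hoxb lay between the same pair of genes. The part of repeats in the low coverage was not tested.

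H3K36me2 was absent from the island lists over every member. All 38 promoters were at 0% in 8 of 8 libraries, and 54.0 to 98.2% of CpG-rich promoters outside the clusters also had no H3K36me2 island, so the lack over the members is shared with most such promoters. Inside the 4 clusters a single island of 0.4 kb with 40 counts was called, in Hoxb in neurosphere cKO 1. The nearest H3K36me2 island outside began 11.4 to 21.0 kb from the Hoxa2 end in neurospheres, against 38.4 to 72.8 kb in hippocampus. Beyond Hoxb1 the order was the other way, at 403 to 878 kb in neurospheres and 58.1 to 325 kb in hippocampus.

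Enrichment was compared as relative density. Counts per kb of the islands touching a cluster were divided by the library's median for islands at CpG-rich promoters outside the clusters. Whole islands entered, with their parts beyond the cluster ends. For H3K27me3 over Hoxd in neurospheres they summed to 112.8 and 112.6 kb in Ctrl, against 187.8 and 246 kb in cKO. Counts were given per island, so the density inside the cluster ends alone is unknown. For H3K27me3 in neurospheres Hoxa had 3.70 and 3.73 in Ctrl libraries against 3.37 and 3.33 in cKO. For Hoxb the Ctrl libraries gave 3.36 and 2.89, against 2.66 and 2.33 for cKO, and for Hoxd 3.89 and 3.84 against 2.93 and 3.19. Hoxc had 2.95 and 3.87 (Ctrl) against 2.88 and 3.23 (cKO). The cKO libraries were below both Ctrl libraries for Hoxa, Hoxb and Hoxd, and the groups overlapped for Hoxc. On the log2 scale the differences (cKO minus Ctrl) were -0.15, -0.32 and -0.34 for Hoxa, Hoxb and Hoxd, each with an exact permutation p of 0.333, the smallest possible, and -0.15 for Hoxc (p = 0.667).

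H2AK119ub1 in neurospheres had lower values in the same direction. Hoxa was at 1.94 and 1.63 in Ctrl and 1.42 and 1.60 in cKO, and Hoxb at 1.55 and 1.49 against 1.24 and 1.35. Hoxc was at 1.82 and 1.68 against 1.38 and 1.53, and Hoxd at 1.85 and 1.62 against 1.34 and 1.504. Both cKO libraries lay below both Ctrl libraries in all 4 clusters, with log2 differences of -0.24, -0.23, -0.26 and -0.29 and an exact permutation p of 0.333 each. Neurosphere Ctrl 1, the library with the highest H2AK119ub1 values over each cluster, also had the most counts in islands (17734396, against 5024442 to 11666549 in the other 3).

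**Figure D4:**
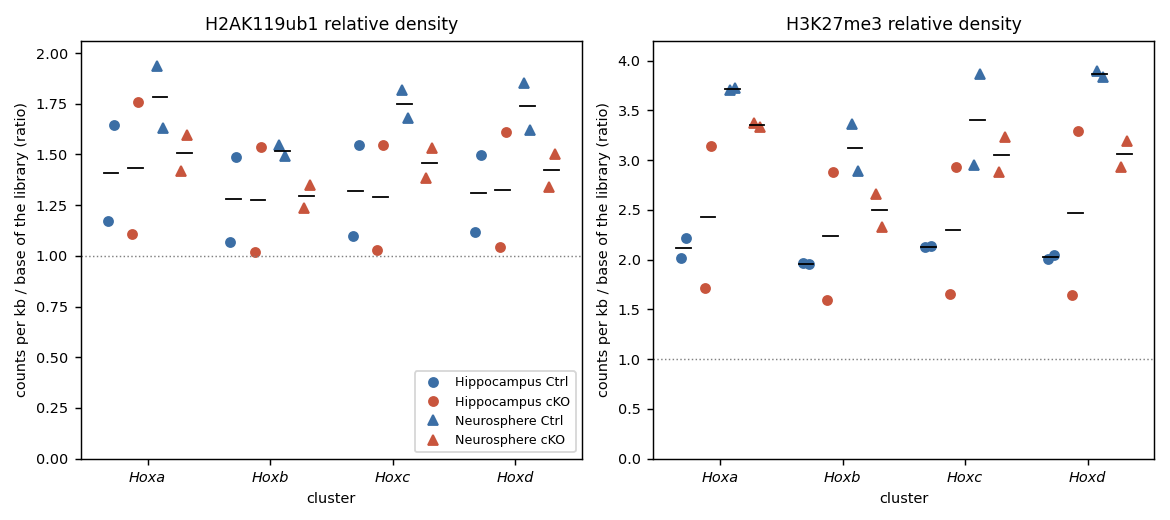
Relative density of the whole islands touching each cluster by mark, source and genotype, with circles for hippocampus libraries, triangles for neurosphere libraries, bars for the mean of 2 and a dotted line at 1, the level of CpG-rich promoters. H3K27me3 reaches 2.33 to 3.89 in neurospheres, and one hippocampus cKO library stands above the other 3 at 2.88 to 3.30.

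The size of these differences moved with the way the density was scaled. When the base was taken only from promoters with an island in all 8 libraries (136 for H2AK119ub1, 642 for H3K27me3), the neurosphere log2 differences of Hoxa, Hoxb, Hoxc and Hoxd became -0.00, 0.00, -0.03 and -0.05 for H2AK119ub1 and 0.01, -0.17, 0.01 and -0.18 for H3K27me3. When all counts of the merged region were used instead of the cluster islands alone, they became -0.21, -0.25, -0.17 and -0.29 for H2AK119ub1 and 0.01, 0.12, 0.19 and 0.07 for H3K27me3. The sign of the H3K27me3 difference thus depended on the scaling, and the cause was not tested. As a share of all island counts, the whole H3K27me3 islands touching the clusters were 1.06-, 1.27-, 1.33- and 1.32-fold of Ctrl in cKO neurospheres, without overlap for Hoxd alone. Their parts beyond the cluster ends are included, so a longer island enters with all its counts. By the same measure H2AK119ub1 in neurospheres was 0.722-, 0.714-, 0.676- and 0.742-fold and H3K27me3 in hippocampus 0.829-, 0.830-, 0.863- and 0.730-fold of Ctrl, with overlap throughout.

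**Figure D5:**
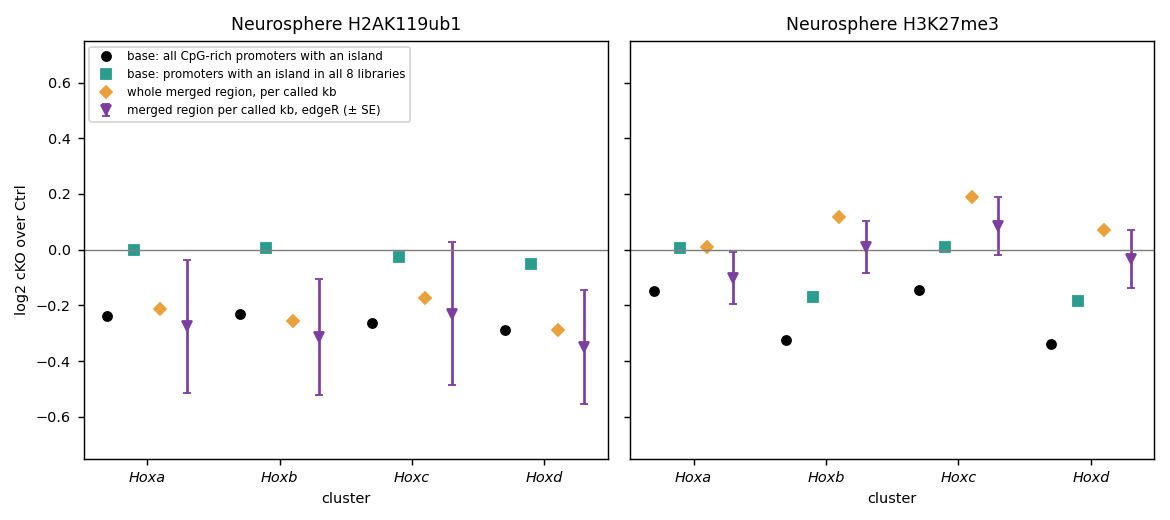
Log2 difference (cKO over Ctrl) in neurospheres for each cluster and mark under 4 ways of scaling, with the edgeR estimate shown ± SE. The H3K27me3 differences run from -0.34 to 0.19 and change sign with the scaling, and the H2AK119ub1 differences run from -0.35 to 0.00.

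By member, relative density is that of the islands touching the promoter, so genes under 1 island carry the same value. For both marks it was taken with the first base and whole islands, and the member counts were not repeated under the other scalings. In neurospheres 20 of 38 members had lower H2AK119ub1 density in both cKO libraries than in both Ctrl libraries, against 30.1% lower over all promoters tested. Of the 20, 2 were in Hoxa, 9 in Hoxb, 3 in Hoxc and 6 in Hoxd, and 7 were anterior, 5 middle and 8 posterior. The 38 promoters were touched by 7 to 17 islands, so the count is over few separate values.

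For H3K27me3, 26 of 38 members were lower in both neurosphere cKO libraries, against 24.6% over all promoters tested. They were 9 of 10 in Hoxa, 9 of 10 in Hoxb, 8 of 9 in Hoxd and none of 9 in Hoxc, and rested on 4 to 7 islands per library. Hoxa10, a posterior gene of the uterus and limb, was at 4.06 and 4.16 in Ctrl and 3.37 and 3.33 in cKO. Hoxd10 was at 4.06 and 4.03 against 2.93 and 3.19. Only Hoxa13 was higher, at 3.22 and 3.17 in Ctrl and 3.37 and 3.33 in cKO, with 23.2% higher over all promoters tested. In Ctrl it lay in an island of its own beyond the break, and in cKO in the island of the whole cluster.

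One member had lower H2AK119ub1 promoter coverage in neurosphere cKO without overlap, Hoxd1, an anterior gene at the cluster end nearest Mtx2. It was covered by 100 and 100% in Ctrl and by 95.5 and 79.5% in cKO, a difference of -12.5 points (exact permutation p = 0.333). Lower coverage without overlap was seen for 7.79% of all promoters with an island, and higher for 4.42%, so 1 lower and no higher member of 38 do not exceed these shares. Over both sources the Hoxd1 difference was -17.5 points (exact stratified permutation p = 0.444), with 65 and 100% in hippocampus Ctrl and 20 and 100% in cKO. In hippocampus no member was lower or higher, where 1.7% of promoters were lower and 2.03% higher. With a window of 1 kb to either side, no member differed.

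In hippocampus, relative density over the clusters overlapped between genotypes throughout. H3K27me3 over Hoxa was 2.01 and 2.22 in Ctrl libraries against 1.72 and 3.14 for cKO, and over Hoxb 1.96 and 1.96 against 1.59 and 2.88. Over Hoxc it was 2.13 and 2.13 against 1.66 and 2.93, and over Hoxd 2.01 and 2.04 against 1.64 and 3.30. The upper cKO value came each time from cKO 2, the library with islands over Emx1 and Lhx2. The log2 differences were 0.13, 0.13, 0.05 and 0.20 with it and -0.30, -0.30, -0.36 and -0.30 without it, so 1 library set the direction. H2AK119ub1 over the clusters was 1.07 to 1.65 in Ctrl and 1.02 to 1.76 in cKO, and in each group the number 1 library held the lower value.

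Region counts were tested with edgeR's quasi-likelihood test over all merged regions, with Benjamini-Hochberg adjustment. None of the 4 Hox regions was called between genotypes for either mark in either source. Nor was any other region called at a false discovery rate (FDR) of 0.05, 0% of 2750 (H2AK119ub1, hippocampus), 6060 (H2AK119ub1, neurosphere), 4387 (H3K27me3, hippocampus) and 11261 (H3K27me3, neurosphere) regions. In the same order, 30, 101, 155 and 2078 regions had an unadjusted p under 0.05, and DESeq2 called 0, 32, 3 and 734. The H3K27me3 log2 fold changes of Hoxa, Hoxb, Hoxc and Hoxd (cKO over Ctrl) were -0.16, -0.22, -0.18 and -0.15 in neurospheres, with SEs of 0.13 to 0.15 and edgeR adjusted p of 0.40 to 0.60. In hippocampus they were -0.34, -0.27, -0.31 and -0.34, with SEs of 0.31 to 0.34, and without cKO 2 they were -0.58, -0.53, -0.53 and -0.61. For H2AK119ub1 they were -0.22, -0.34, -0.26 and -0.28 in neurospheres, with SEs of 0.30 to 0.36, and -0.22, -0.17, -0.45 and -0.43 in hippocampus, with SEs of 0.24 to 0.27. The lone call under any left-out library was Hoxc for H2AK119ub1 without neurosphere Ctrl 1, at -0.46 (SE 0.14, edgeR adjusted p = 0.0127), when 567 regions were called in all. No Hox region was called for a difference between the genotype effects of the sources (interaction in edgeR, adjusted p 0.92 to 0.99).

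Between sources, no Hox cluster passed a test of relative density. H3K27me3 relative density was 1.59-fold higher over Hoxa in neurospheres than in hippocampus, without overlap between the 4 and 4 libraries, with an exact permutation p of 0.0556, the smallest that permuting within genotype can give (adjusted over 8 tests, 0.296). It was 1.36-fold over Hoxb, 1.48-fold over Hoxc and 1.58-fold over Hoxd, with overlap. Without hippocampus cKO 2 the log2 differences of Hoxa, Hoxb, Hoxc and Hoxd went from 0.67, 0.44, 0.57 and 0.66 to 0.89, 0.66, 0.77 and 0.91, and each had the smallest possible p. With the base of promoters called in all 8 libraries the H3K27me3 folds were 1.38, 1.18, 1.28 and 1.37, without overlap for Hoxa and Hoxc, and the H2AK119ub1 folds were 1.10, 1.05, 1.17 and 1.14, without overlap for Hoxc and Hoxd (exact permutation p = 0.0556 each, adjusted 0.111). By H3K27me3 relative density as first defined, all 10 Hoxa members and no other member were higher without overlap, against 16.4% of the promoters tested. The 10 lay under 2 islands in each neurosphere Ctrl library and under 1 in every other library, so the count is over few separate values. For H2AK119ub1 the folds were 1.12 to 1.24, with exact permutation p of 0.222 to 0.389. Without the number 1 hippocampus libraries the H2AK119ub1 log2 differences were -0.06, -0.11, 0.04 and 0.01.

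By edgeR on region counts, none of the 4 Hox regions was called between sources for either mark, while 42.5% of 2373 H3K27me3 regions and 20.5% of 1555 H2AK119ub1 regions were at FDR 0.05. When the called length entered the fit as an offset, H3K27me3 per called kb was 1.42-fold higher in neurospheres for Hoxa (edgeR adjusted p = 0.0248), 1.44-fold for Hoxc (0.0129), 1.42-fold for Hoxd (0.0262) and 1.22-fold for Hoxb (0.112). By the same fit 13.9% of the regions were higher. Culture, passage and the cells selected by growth factors come together with the source and cannot be told apart from it.

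Genes that act with or on Hox genes were taken from lists of cofactors, regulators and neighbours, of which 39 genes were in the annotation. For H3K27me3 in neurospheres, 27 of them had an island in at least 1 library and 21 in all 4. Of the 27, 6 had lower and 4 higher promoter coverage in both cKO libraries. All 4 higher genes were among the 12 beside the clusters. For H2AK119ub1, 34 had an island and 12 had one in all 4 libraries, with 3 lower and 2 higher. Over all promoters with an island, 13.3% were lower and 8.53% higher for H3K27me3, and 7.79% and 4.42% for H2AK119ub1. A difference of the lists from these shares was not tested, and the genes below are given as values. Gbx2, a homeobox gene of the midbrain-hindbrain border, was covered by H3K27me3 at 100 and 100% in Ctrl and 60 and 0% in cKO. Cyp26b1, which breaks down retinoic acid, was at 100 and 100% against 7.3 and 0%. Pbx3, a TALE homeodomain cofactor, was at 100 and 100% against 75 and 80% for H3K27me3, and at 100 and 100% against 11.5 and 0% for H2AK119ub1.

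Among the neighbours of the clusters, Mtx2 beside Hoxd was covered by H3K27me3 at 30 and 35% in neurosphere Ctrl and 70 and 90% in cKO, and Skap2 beside Hoxa at 51.3 and 20% against 91.3 and 100%. Skap2 also had H2AK119ub1 at 36.3 and 46.3% in cKO and 0% in both Ctrl libraries. The Hoxd island itself reached Mtx2 in cKO 2 alone, and no Hoxa island reached Skap2. In hippocampus 1 listed gene of the 26 with an island was higher for each mark and none lower. Over all promoters with an island, 11.8% (H3K27me3) and 2.03% (H2AK119ub1) were higher. The listed genes were Meis1 for H3K27me3 (80 and 75% against 100 and 100%) and Aldh1a2, a retinoic acid synthesis enzyme, for H2AK119ub1 (70.3 and 69.7% against 100 and 100%).

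Between sources, edgeR called lower H3K27me3 in neurospheres for the regions of the hindbrain genes Egr2 (log2 -2.48, adjusted p = 0.000124) and Gbx2 (log2 -1.50, adjusted p = 0.000899). The ParaHox gene Gsx2 fell as well (log2 -1.59, edgeR adjusted p = 0.000569), as did the region shared by Gsx1, Pdx1 and Cdx2 (log2 -0.91, edgeR adjusted p = 0.0014). The region of Cdx1, which also holds Csf1r, a microglial gene, rose in neurospheres (log2 1.44, edgeR adjusted p = 0.00106). These are the calls among the listed genes, where 42.5% of all H3K27me3 regions were called. With called length as an offset the log2 differences were -0.49 for Egr2 (edgeR adjusted p = 0.00878), -0.34 for Gbx2 (0.169), -0.40 for Gsx2 (0.0514) 0.27 for the region shared by 3 genes (0.136) and 0.12 for Cdx1 (0.485), so of these only Egr2 was called per called kb. Against these, the H3K27me3 log2 differences of the 4 Hox regions between sources were -0.08 to 0.07, with SEs of 0.14 to 0.20 and edgeR adjusted p of 0.71 to 0.94.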

How the data were processed

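Formaldehyde-fixed chromatin, digested with micrococcal nuclease and sonicated, was immunoprecipitated with antibodies to H2AK119ub1, H3K27me3 or H3K36me2. The methods state that a lysate was divided between input and marks, while the labels name separate inputs for H3K36me2 in hippocampus. Per the labels and methods, the authors trimmed reads with cutadapt, aligned them to mm10 with Bowtie2 2.4.5, removed duplicates and called islands per library against input with SICER, whose version is not given in the sources used here. The deposited values were raw read counts per island, without molecular identifiers, on a 200 bp grid. The 12 inputs had no island list, so reads outside islands were unknown.

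Genes came from GENCODE vM21 and sequences from RefSeq. Islands were intersected with promoters (2 kb to either side of the start), clusters and 200 bp windows in Python 3.11.15 (numpy 2.4.6, pandas 2.3.3, scipy 1.17.1). Overlapping islands of the libraries compared were merged to regions, and their counts were tested with edgeR 4.0.16 (R 4.3.3, TMM, quasi-likelihood, FDR 0.05), with DESeq2 1.42.0 as an alternative. Scripts were tested on simulated data. Single values were tested by exact permutation of the library labels (two-sided), within source where sources were combined. Counts of members rest on the absence of overlap between groups. Genes were named where they lay at a cluster end, differed without overlap or belonged to the lists. Members and lists were chosen with earlier results of these data known.

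Same-numbered libraries of different marks may share a lysate, but Ctrl and cKO libraries cannot. Whether same-numbered Ctrl and cKO libraries of a mark were prepared together is not stated. The correlation of their deviations from the group means was 0.33 in hippocampus and -0.32 in neurospheres for H2AK119ub1, and 0.27 and -0.12 for H3K27me3. The numbers were not treated as pairs in the main tests, and the cause of the positive values in hippocampus was not tested.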

Additional observations from a re-analysis of the deposited data

How the results depend on the processing

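Reads outside islands are unknown, so a thin library cannot be told from one with little mark, and 2 libraries against 2 cannot reach an exact p under 0.333. Of the alternatives tried, joined islands gave a mean of 8.5 H2AK119ub1 islands in neurosphere cKO and 4 H3K27me3 islands in neurosphere Ctrl. A 1 kb window gave 0 members with lower H2AK119ub1 coverage in neurosphere cKO, and RefSeq starts gave 1 with higher coverage. The share over all promoters was not computed for either setting. Between genotypes DESeq2 called 32 regions (H2AK119ub1, neurosphere), 3 (H3K27me3, hippocampus) and 734 (H3K27me3, neurosphere). Per called kb, 1 (H2AK119ub1) and 303 (H3K27me3) neurosphere regions were called, and between sources 106 (H2AK119ub1) and 591 (H3K27me3), 3 of the latter being Hox regions. The cause was not tested.

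Per called kb the H3K27me3 log2 differences turned to 0.0783, 0.10, 0.0558 and 0.0576 for Hoxa, Hoxb, Hoxc and Hoxd in hippocampus, and to 0.0097 (Hoxb) and 0.0845 (Hoxc) in neurospheres. Between sources they turned to 0.20, 0.17, 0.24 and 0.23 for H2AK119ub1 and to 0.50 (Hoxa), 0.53 (Hoxc) and 0.50 (Hoxd) for H3K27me3, as islands were denser in neurospheres. Without both number 1 hippocampus libraries 121 H2AK119ub1 regions differed between sources, and Hoxc turned to 0.13.

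With the replicate number as a block, 9 H3K27me3 hippocampus regions were called and none in the other comparisons of genotype for these marks, and Hoxc turned to 0.0298 between sources for H2AK119ub1. With numbers crossed in neurospheres, an alternative added after seeing the data, 0 regions were called for either mark.

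Leaving out 1 library at a time gave 0 to 26 members with lower and 0 to 12 with higher H2AK119ub1 coverage in hippocampus, and 1 to 8 and 0 to 3 in neurospheres. Regions called ranged from 0 to 16 (H2AK119ub1, hippocampus), 0 to 567 (H2AK119ub1, neurosphere, 0 to 1 of them Hox), 0 to 37 (H3K27me3, hippocampus), 0 to 2851 (H3K27me3, neurosphere) and 156 to 530 (H2AK119ub1, sources). For H2AK119ub1 the log2 difference ranged from -0.38 to 0.0691 for Hoxb in hippocampus, and in neurospheres from -0.36 to 0.15 (Hoxa), -0.46 to 0.18 (Hoxc) and -0.46 to 0.14 (Hoxd). For H3K27me3 in hippocampus it ranged from -0.63 to 0.14 (Hoxa), -0.54 to 0.19 (Hoxb), -0.58 to 0.11 (Hoxc) and -0.66 to 0.17 (Hoxd). Between sources it ranged from -0.28 to 0.24 for Hoxc (H2AK119ub1), and from -0.21 to 0.0729 (Hoxa), -0.15 to 0.13 (Hoxb) and -0.16 to 0.0715 (Hoxd) for H3K27me3.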
